A study of Mus musculus with 3 samples.

Results

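The interleukin 1 family and its antagonists were followed here as 9 genes, taken by gene symbol from the 55536 genes of the tables: the agonist cytokines Il1a, Il1b, Il18 and Il33, the antagonists Il1rn and Il18bp, the receptor Il1r1 with its co-receptor Il1rap, and the decoy receptor Il1r2. All 9 symbols were found, and 8 of the 9 had at least 1 count in some library. The RNA came from the chromatin fraction of bone marrow-derived macrophages of C57BL/6J mice, primary phagocytes grown from marrow, which had received 100 ng/ml Lipid A for 25 min. Lipid A, the membrane anchor of lipopolysaccharide, is recognised by TLR4, and chromatin RNA is rich in transcripts still attached to their genes. All 3 libraries, biological replicates 1, 2 and 3 by their labels, formed 1 group, and no unstimulated cells were analysed, so the values describe levels in stimulated cells and do not show induction. The libraries were labelled as made from 1000, 250 and 500 ng of RNA in replicates 1, 2 and 3. Their labels share a donor entry and differ in the biosample entry. They do not say whether the cells came from separate animals, so the spread between these samples may be technical, and p-values do not reach beyond them.

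Interleukin 1 alpha and beta, encoded by Il1a and Il1b, bind the same receptor, Il1r1, which signals only after Il1rap has joined it. The antagonist Il1rn occupies Il1r1 without recruiting Il1rap, the decoy Il1r2 binds ligand but carries no signalling domain, and Il18bp captures interleukin 18 outside the cell. Interleukin 1 beta and interleukin 18 are made as precursors that inflammasome caspases cut, and in macrophages TLR4 is a classical trigger of Il1b transcription.

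Levels are given as TPM, a count scaled for gene length and library size. All 8 macrophage markers, from Csf1r at 535, Cd14 at 496 and Lyz2 at 422 down to Fcgr1 at 31.3 TPM, were well above the 28 markers of neutrophils, mast cells and basophils, T and NK cells, dendritic cells and stroma. Of those 28, 3 reached a mean of 1 TPM (Zbtb46 at 1.95, Ngp at 1.87 and Kit at 1.71 TPM), and 8 had no count. In a second kind of deposited table, called kallisto-type here after its column names, 8 of the 28 reached 1 TPM. Thy1 stood there at 8.56 and Pecam1 at 5.69 TPM, and Thy1 had no count in the main tables. Kallisto-type TPM were kept as deposited. They are not on the scale of the main TPM, which were recomputed over genes of at least 300 nt. In the main tables the summed level of the 28 markers was 11.1, 9.45 and 8.92 TPM in replicates 1, 2 and 3. The neutrophil markers together stood at 3.20, 4.05 and 2.26 TPM, with Ly6g and Elane at no count. Among the 5 mast cell and basophil markers, Kit had 13, 27 and 35 counts, Cpa3 had 4, 0 and 0, Gata2 had 0, 3 and 2, and Mcpt8 and Fcer1a had none. The gene tables held 13318787, 19162053 and 19147923 expected counts on genes in replicates 1, 2 and 3. Replicate 1 stood apart in level: over 8186 genes of at least 10 TPM the median ratio of replicate 1 to the mean of the other libraries was 1.23, and 10% of those genes exceeded 2.06.

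The upstream sequences of 4 members are shown, since Il1b and Il1a were the highest members, Il1rn encodes their antagonist, and Il33 was the member with no count. Each is the 250 bases before a RefSeq start in GRCm38.p6, written along the gene's direction, with capitals marking matches to the motifs searched.
Il1b, chr2:129371140-129371389, minus strand: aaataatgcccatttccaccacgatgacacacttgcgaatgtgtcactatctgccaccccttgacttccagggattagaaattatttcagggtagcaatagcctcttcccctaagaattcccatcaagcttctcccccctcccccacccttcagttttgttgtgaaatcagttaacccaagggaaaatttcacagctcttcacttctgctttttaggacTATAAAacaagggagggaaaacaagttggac
Il1a, chr2:129309973-129310222, minus strand: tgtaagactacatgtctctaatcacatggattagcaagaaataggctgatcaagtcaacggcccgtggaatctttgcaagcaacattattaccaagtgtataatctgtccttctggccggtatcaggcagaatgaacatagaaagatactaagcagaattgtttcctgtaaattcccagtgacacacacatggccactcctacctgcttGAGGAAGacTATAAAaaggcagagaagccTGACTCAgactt
Il1rn, upstream start, chr2:24336610-24336859, plus strand: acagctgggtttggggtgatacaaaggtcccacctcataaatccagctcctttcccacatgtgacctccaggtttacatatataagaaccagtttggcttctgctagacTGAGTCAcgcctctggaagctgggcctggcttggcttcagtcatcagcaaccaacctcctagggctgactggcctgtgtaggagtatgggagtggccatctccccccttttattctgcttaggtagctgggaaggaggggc
Il33, chr19:29945540-29945789, plus strand: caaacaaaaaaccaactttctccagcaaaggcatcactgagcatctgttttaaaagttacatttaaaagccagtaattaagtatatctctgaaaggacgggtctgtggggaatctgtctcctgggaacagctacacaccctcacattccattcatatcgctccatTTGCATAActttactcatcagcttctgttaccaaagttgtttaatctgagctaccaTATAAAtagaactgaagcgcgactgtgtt

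The windows searched ran from 250 bases before to 50 after a start, and the 9 members had 13 of them. The motifs were the TATA box TATAAA on the gene's strand and, on both strands, AP-1 TGANTCA, PU.1 GAGGAAG, C/EBP TTGCNNAA, IRF GAAANNGAA and an NF-kB site by name. Overlapping matches of different motifs were kept. Il1b had 1 match, a TATA box whose first base lay at -31 from the start, and Il1a had a TATA box at -32, a PU.1 match at -41 and an AP-1 match at -12. The TATA box was found in 8.32% of the 32851 windows of all genes, AP-1 in 7.81% and PU.1 in 13.6%. The upstream window of Il1rn held an AP-1 match at -141, and its downstream windows held none of the 6 motifs. Il33, which had no count, carried a TATA box at -29 and a C/EBP match at -85 in the window shown. The other Il33 window held a TATA match at -203 and a PU.1 match at -4. Il18bp had a C/EBP match at -49 and Il1r1 another at -133, against 10.8% of all windows, and the other Il1r1 window held an NF-kB match at -232, against 4.51%. Il1rap had an IRF match at 21 after the start, against 8.56%. The Il18 and Il1r2 windows matched none of the 6. A match describes letters in a window and is not evidence of binding.

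Il1b stood far above every other member. It lies in mm10 on the minus strand of chromosome 2 (129364570 to 129371139) and reached 1896, 604 and 786 TPM in replicates 1, 2 and 3. The mean of 1095 ± 699 TPM (SD, n = 3) ranked 42 from the top among all genes of at least 300 nt. Il1b alone held 82.1%, 79.4% and 81.2% of the summed TPM of the 9 members. Replicate 1 was the highest and replicate 2 the lowest. The ratio of replicate 1 to the mean of the others was 2.73, above that of 96.8% of genes of at least 10 TPM. In bulk RNA, fewer cells of a type and less RNA per cell cannot be told apart.

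Il1a, the gene next to it, came second. It is encoded on the same strand 54597 nt away (chromosome 2, 129299610 to 129309972), and its levels were 216.9, 52.7 and 56.6 TPM in replicates 1, 2 and 3 (108.8 ± 93.7, SD, n = 3). Here too replicate 1 was the highest, at 3.97 times the mean of the others, a ratio above that of 99.3% of genes of at least 10 TPM. Its coefficient of variation was 86.1% and that of Il1b 63.9%, against a median of 20.8% over those genes.

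Il18, whose product drives interferon gamma production by lymphocytes, was measured at a lower level. It lies on the plus strand of chromosome 9 (50554827 to 50581840) and stood at 37.1, 15.9 and 32.7 TPM in replicates 1, 2 and 3 (28.6 ± 11.2, SD, n = 3), with replicate 2 the lowest. Il33, an alarmin typical of epithelial and endothelial nuclei, had 0 counts in all 3 libraries and in both kinds of table (chromosome 19, 29925114 to 29960718). CPM are counts divided by the library total without regard to length. A count of 0, taken to allow 3 counts, allows 0.225, 0.157 and 0.157 CPM in replicates 1, 2 and 3, a limit from counting error alone. The two-sided exact 95% Poisson interval of a count of 0 is wider and reaches 3.69 counts.

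Both antagonists were present. Il18bp (chromosome 7, minus strand, 102014885 to 102018690) stood at 85.8, 49.5 and 58.4 TPM in replicates 1, 2 and 3 (64.6 ± 18.9, SD, n = 3). Its coefficient of variation of 29.3% was the smallest among the 8 members with counts. Il1rn (chromosome 2, plus strand, 24336853 to 24351494) stood at 62.1, 34.4 and 27.3 TPM (41.2 ± 18.4, SD, n = 3), with replicate 1 the highest.

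The receptors were low. The co-receptor Il1rap (chromosome 16, 26581704 to 26730117) stood at 2.97, 1.68 and 1.82 TPM in replicates 1, 2 and 3 (2.16 ± 0.71, SD, n = 3). The signalling receptor Il1r1 (chromosome 1, 40225080 to 40317257) stood at 0.373, 0.234 and 0.151 TPM, on 10, 12 and 7 counts whose exact 95% Poisson intervals run from 4.80 to 18.4, from 6.20 to 20.96 and from 2.81 to 14.4. The decoy Il1r2 (chromosome 1, 40074079 to 40125231) stood at 9.16, 1.93 and 4.65 TPM (5.25 ± 3.66, SD, n = 3), on 20, 4 and 8 counts with intervals from 12.2 to 30.9, from 1.09 to 10.2 and from 3.45 to 15.8. These intervals cover counting error only. At this depth the counts of Il1r1 were not distinguishable between libraries, and the TPM of Il1r2 rests on an estimated mean gene length of 490 nt against 5405 nt for Il1r1.

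**Figure D1:**
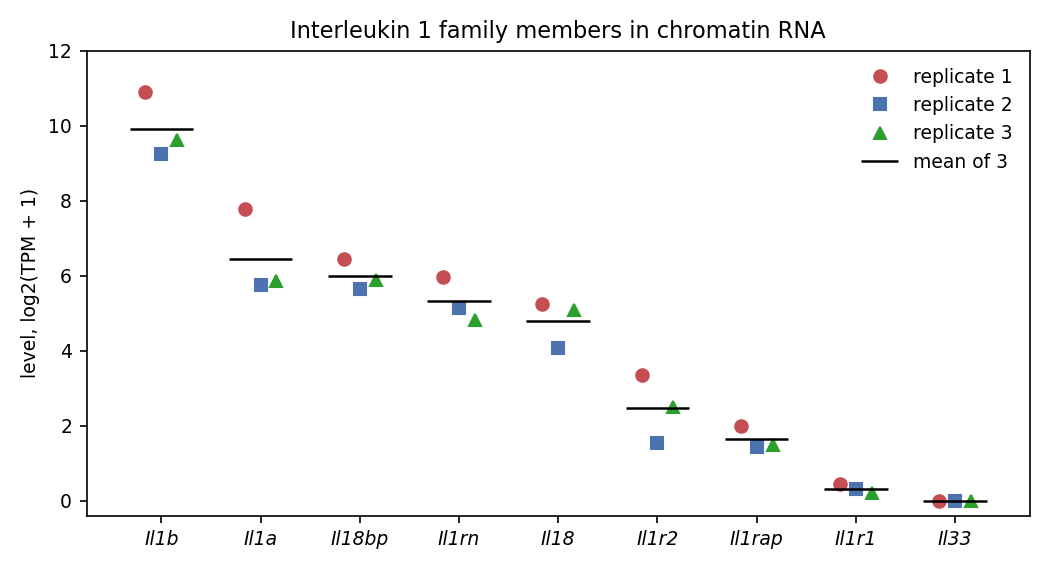
Level of each member as log2(TPM + 1) in the 3 libraries (points) with the mean of the log values (line). Il1b is the highest in every library, from 604 to 1896 TPM, and Il33 is at 0 in all 3.

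In the order of mean levels (Il1b, Il1a, Il18bp, Il1rn, Il18, Il1r2, Il1rap, Il1r1, Il33), some neighbours did not differ beyond their spread. Il1a exceeded Il18bp in 2 of 3 libraries, with a mean log2 ratio of 0.46 ± 0.76 (SD, n = 3). Il1rn exceeded Il18 in 2 of 3 libraries, at 0.53 ± 0.71. The other 6 neighbouring pairs kept their order in all 3 libraries in these TPM, and the 5 of them with counts in both genes had a mean log2 ratio larger than its SD, from 0.70 ± 0.35 for Il18bp over Il1rn to 3.48 ± 0.33 for Il1b over Il1a. The order of Il18bp and Il1rn turned in kallisto-type TPM, where Il1rn stood at 65.3, 27.97 and 29.5 and Il18bp at 35.0, 18.1 and 27.7 in replicates 1, 2 and 3 (log2 ratio of Il18bp to Il1rn -0.54 ± 0.41). The order of Il1r2 over Il1rap (1.06 ± 0.76) rests on the short estimated length of Il1r2, since its 20, 4 and 8 counts lay below the 50.6, 43 and 43 counts of Il1rap. Of the 9 members, 7 reached a mean of 1 TPM, or 77.8%. That level was reached by 32.9% of all 46615 genes of at least 300 nt and by 64.7% of those with a count. In kallisto-type TPM, 6 of the 9 members and 18571 of the 46615 genes reached it.

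The kallisto-type table is a second estimate made per transcript, while the main tables have the column names of RSEM. For 9743 genes with at least 50 expected counts in every library, kallisto-type counts were a median of 1.58 times the RSEM-type counts, with 80% of genes between 1.28 and 2.57. The factor was 3.20 for Il1a, 2.21 for Il1b, 2.24 for Il1rn, 2.12 for Il18 and 1.37 for Il18bp. For the receptors with few counts it was 1.78 in Il1rap, 6.50 in Il1r2 and 9.53 in Il1r1, where 10, 12 and 7 counts became 45, 97 and 112. Kallisto-type TPM of Il1r1 was 0.691 and that of Il1rap 0.996, while Il18 and Il18bp stood at 14.8 and 26.9 TPM. As these TPM were not rescaled, a difference in level from the main TPM includes a difference in scale.

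Within libraries, 5 ratios between members that oppose or complement each other were compared. Il1b exceeded Il1a by 3.13, 3.52 and 3.79 log2 units in replicates 1, 2 and 3, a mean of 3.48 ± 0.33 (SD, n = 3) or 11.2-fold. The antagonist Il1rn stood at 0.0401 times the level of Il1b, with log2 ratios of -4.93, -4.13 and -4.85 (-4.64 ± 0.44). All 3 libraries gave the same order in both ratios. Il18bp exceeded its ligand Il18 by 1.21, 1.63 and 0.84 log2 units (1.23 ± 0.40, or 2.34-fold). The decoy Il1r2 exceeded Il1r1 by 4.62, 3.04 and 4.95 log2 units (4.20 ± 1.02). That direction depends on gene length, because on CPM, without length, the mean log2 ratio was -0.13. Il1rap exceeded Il1r1 by 3.00, 2.85 and 3.59 log2 units (3.15 ± 0.40), and by 0.43 in kallisto-type TPM. In each of the 5 comparisons the exact two-sided sign-flip permutation test over 3 libraries gave p = 0.25 (adjusted over the 5, 0.25), the smallest p that 3 libraries allow, so no ratio could pass a threshold of 0.05.

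**Figure D2:**
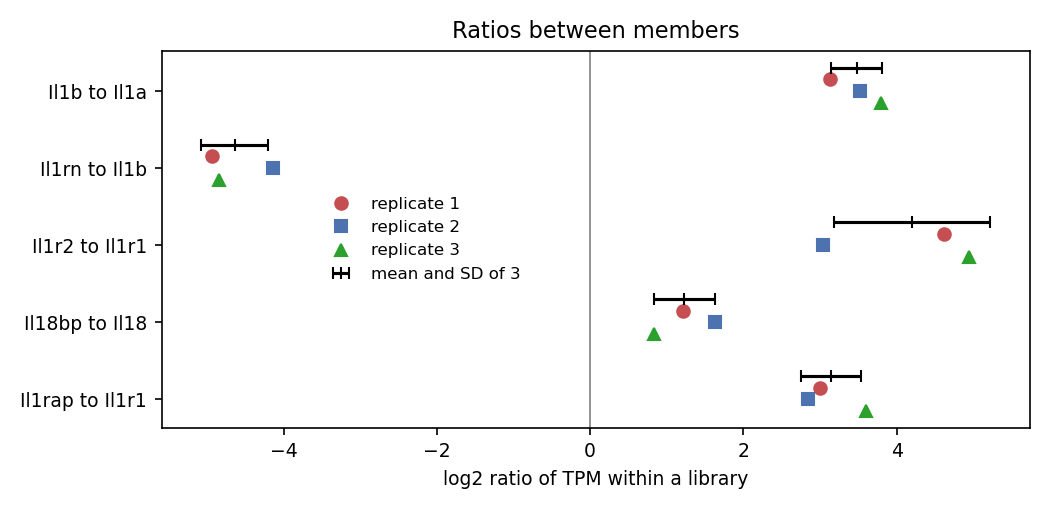
Log2 ratio of TPM between pairs of members within each library (points), with the mean and SD of 3 libraries (bar above). Il1rn lies more than 4 log2 units below Il1b in every library, and the Il1r2 to Il1r1 ratio, which rests on 4 to 20 counts, has the widest spread at 1.02.

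The other 12 genes of the family were low or without a count by RSEM-type counts. The interleukin 36 genes Il1f6 and Il1f8 and the antagonist Il1f5 had no count, nor did Il1f10, Il1rapl1 and Il1rapl2. Il1f9, the gene of interleukin 36 gamma, and the interleukin 18 receptor chain Il18r1 had 1 count each. The interleukin 36 receptor Il1rl2, which lies 7352 nt from Il1r1, had 5.01, 1.96 and 1.92 TPM in replicates 1, 2 and 3, the highest mean of the 12 in the RSEM-type tables. The accessory chain Il18rap followed at 2.73, 0.901 and 2.05 TPM, and the inhibitory receptor Sigirr at 1.00, 0.972 and 0.706 TPM. Il1rl1, the interleukin 33 receptor gene, had a mean of 0.257 TPM. In all, 2 of the 12 had a mean of 1 TPM or more, and 5 of 12 did in kallisto-type TPM. Kallisto-type TPM listed Il18r1 at 8.36, 4.44 and 6.16, Il1f9 at 4.43, 1.14 and 2.30 and Il1rapl2 at 1.63, 1.72 and 2.53 in replicates 1, 2 and 3, so the near absence of these 3 genes holds for the RSEM-type tables only. Il1rapl1 had 33, 34 and 31.2 kallisto-type counts at a mean of 0.136 TPM. For Il1rl1, 7, 15 and 7 counts became 81.6, 167 and 137 at a mean of 0.895 TPM. The order differed too, with Il18rap highest at a kallisto-type mean of 6.48 TPM and Il1rl2 at 1.51.

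Genes that act in signalling downstream of Il1r1 were present without exception in the list used. All 14 receptor-proximal genes reached 1 TPM on average, and the list's median level was 32.5 TPM against 3.37 TPM for all genes of at least 300 nt with a count. Irak2 led with 144 ± 43.5 TPM (SD, n = 3), ahead of the adaptor Tab2 at 80.2 ± 28.6 and the kinase Irak1 at 76.5 ± 0.66 TPM. Tab3 was the lowest at 8.29 ± 2.41 TPM. TLR4 signals through many of the same proteins.

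Among 16 processing and release genes, 13 reached 1 TPM on average, and the list's median level was 52.4 TPM. The inflammasome sensor Nlrp3 was the highest at 810, 482 and 415 TPM in replicates 1, 2 and 3. Nlrp1b followed at 264 ± 30.3 TPM and Casp4, the protease that senses cytosolic lipopolysaccharide, at 261 ± 236 TPM (SD, n = 3). Casp4 stood at 533, 113 and 138 TPM in replicates 1, 2 and 3, with replicate 1 the highest, as in Il1a and Il1b. The granule proteases Ctsg and Elane had no count, and Prtn3 had 2, 2 and 1 counts.

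The 9 members have 37 annotated transcripts, of which 28 are protein coding and 9 are of other types. About as many Il1b counts lay on transcripts without a coding sequence as on the messenger form. The coding Il1b-201 took 53.3%, 47.5% and 55.02% of the gene's RSEM-type counts in replicates 1, 2 and 3, and Il1b-203, annotated as a retained intron, took 45.5%, 51.9% and 44.0%. Il1b-203 has 689 nt and keeps the 532 nt of intron 2 (chromosome 2, 129369752 to 129370283), the smallest of the 6 introns of Il1b-201. The short Il1b-202, a processed transcript, had 0.917% of the counts, and 10.9% in the kallisto-type table. Together the noncoding forms took 46.7%, 52.5% and 44.98% of Il1b counts (48.0 ± 3.94, SD, n = 3), and 49.2% in the kallisto-type table. The tables list no unspliced form, so reads of intron 2 in unspliced Il1b RNA and in Il1b-203 cannot be told apart.

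Il1rn had a smaller share on such transcripts, 28.3%, 23.6% and 21.4% in replicates 1, 2 and 3 (24.4 ± 3.49, SD, n = 3), nearly all of it on the processed transcript Il1rn-206. The share was 33.7% on kallisto-type counts and 58.9% when taken over TPM, which weight short transcripts more. Among 7128 protein coding genes with a transcript of this kind and at least 50 counts in every library the median share was 28.2%, and the middle 50% of genes ran from 9.90% to 54.0%. By counts, Il1b and Il1rn both lay inside that range. Il1a, Il18 and Il18bp have only coding transcripts in the annotation, and the other 4 members had too few counts.

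**Figure D3:**
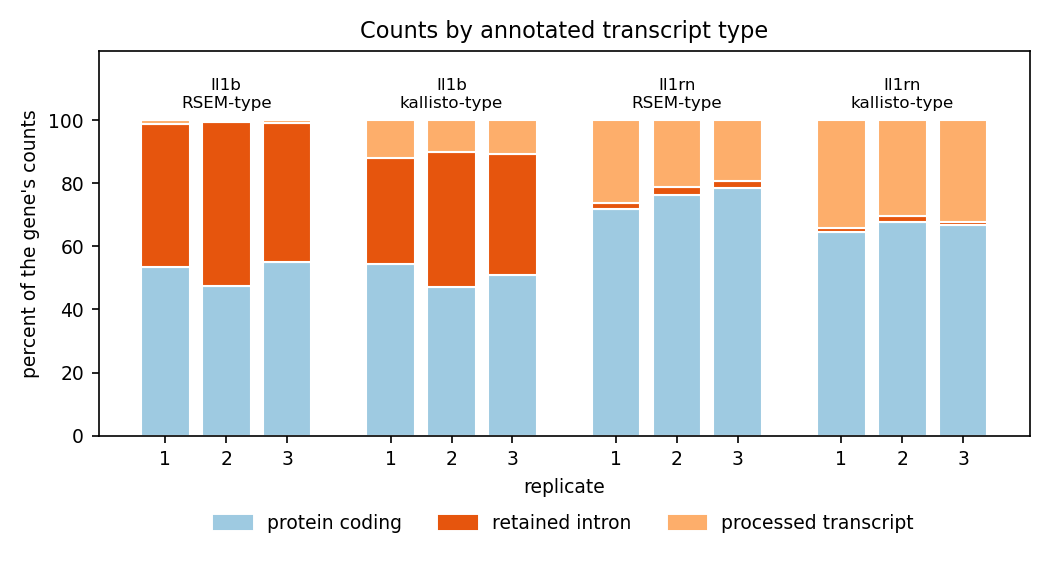
Percent of the counts of Il1b and Il1rn on each annotated transcript type, per replicate, in the RSEM-type and the kallisto-type tables. Bars show that the coding share of Il1b was near 50% in both tables, from 47.2% to 55.02%, while the counts left over were split differently between retained intron and processed transcript.

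Il1rn starts at either of 2 places. The upstream group of 3 transcripts, starting at 24336853 to 24336856, includes the coding Il1rn-204, and the downstream group of 3 (24345288 to 24345348) includes the coding Il1rn-201 and Il1rn-206. The downstream group took 71.5%, 40.9% and 61.0% of Il1rn counts in replicates 1, 2 and 3 (57.8 ± 15.6, SD, n = 3), and 74.5%, 64.6% and 78.2% in the kallisto-type table. Replicate 2 had the smallest downstream share in both tables. The groups share exons, so these shares are estimates of the authors' quantification and not counts of reads at each start. Within the downstream group, the noncoding Il1rn-206 alone took 26.3%, 21.3% and 19.1% of the RSEM-type counts of Il1rn in replicates 1, 2 and 3. It lies within the span of the upstream Il1rn-204, so its reads and those of unspliced RNA from the upstream start cannot be told apart.

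Within Il18bp, Il18bp-202 took 66.3%, 73.2% and 75.5% of the counts and Il18bp-203 nearly all of the rest. The transcripts of Il18 could not be separated: Il18-202 took 64.8%, 70.8% and 71.0% of RSEM-type counts and Il18-201 none, whereas the kallisto-type table gave Il18-201 29.6%, 36.3% and 41.2% and Il18-202 none. These transcripts have the same length of 702 nt and differ at 7 positions.

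Genes that overlap the members were also counted. Gm14023 is transcribed from the strand opposite to Il1a, and its 3707, 2499 and 2041 counts in replicates 1, 2 and 3 exceeded the 2224, 839 and 857 counts of Il1a in every library. Of its 1781 exonic nt, 222 lie in exons of Il1a, 1452 in introns of Il1a and 107 outside that gene. The strand setting of the counting was not given, and without it reads of a gene and its antisense partner cannot be told apart. The Gm14023 counts were also added to Il1a, a choice made after seeing the data. Scaled by the length of Il1a alone, Il1a would then reach 327 TPM and Il1b would exceed it by 1.76 log2 units. That length leaves out the introns of Il1a, where most exonic nt of Gm14023 lie, so the 327 TPM is not on the scale of the other levels.

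Il1bos, antisense to Il1b, had 64, 42 and 44 counts against 7474, 3384 and 4456 for Il1b, and shares 25 exonic nt with it. Numa1 overlaps the end of Il18bp by 80 nt on the opposite strand and had 3611, 7058 and 6903 counts against 957, 892 and 1016 for Il18bp. Tex12 and Bco2 overlap Il18 on the opposite strand without sharing exonic nt, and Tex12 had 84, 50 and 44 counts against 117, 73 and 143 for Il18. Bco2 had 26.6, 29 and 38 counts. Gm20319, antisense to Il1rap, had at most 3 counts.

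In the receptor cluster, unspliced loci of uncertain status lie within the spans of the receptor genes on the same strand. Gm38070 in Il1r1 had 34, 23 and 40 counts, more than the 10, 12 and 7 counts of Il1r1. Gm37347 in Il1r2 had 95, 23 and 109 counts, more than the 20, 4 and 8 of Il1r2, and the antisense Gm16894 had 10, 5 and 12. None of the 3 shares exonic nt with the receptor gene it overlaps. Their counts were not added to the receptor levels.

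**Figure D4:**
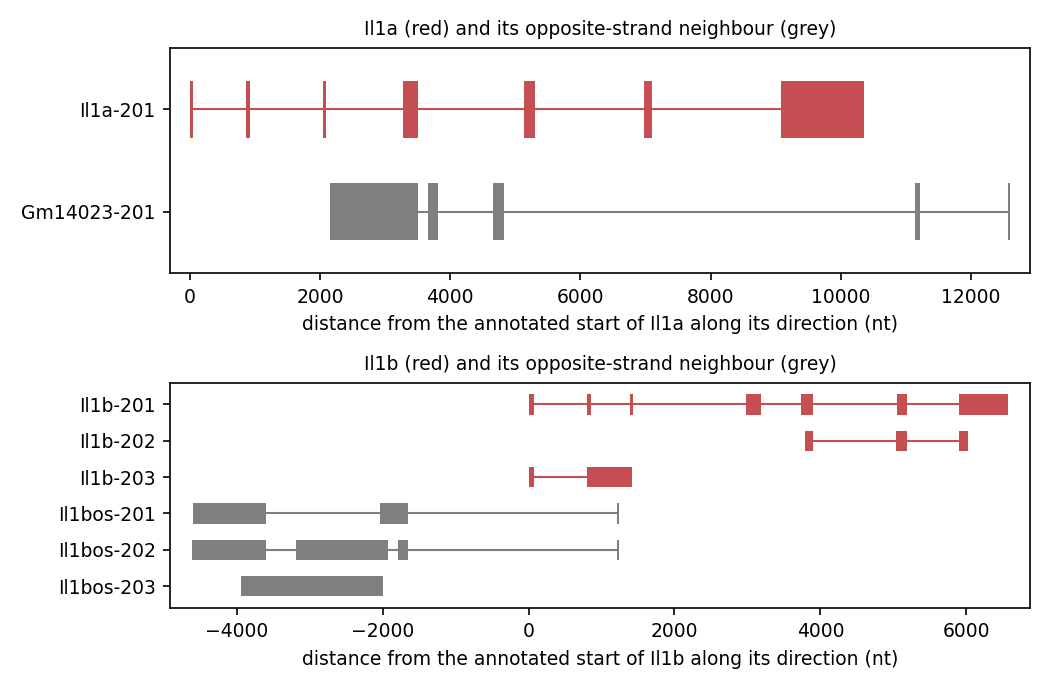
Exons (boxes) and introns (lines) of Il1a and Il1b transcripts in red and of their opposite-strand neighbours in grey, by distance in nt from the annotated start of Il1a or Il1b along its direction. Most of the long exon of Gm14023 faces introns of Il1a, and Il1b-203 ends just after the intron 2 that it keeps.

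The only labelled difference between the libraries was the amount of RNA, and amount and replicate cannot be told apart. With edgeR's quasi-likelihood test on expected counts, 2.98% of the 15077 genes tested were higher with more labelled RNA and 1.41% lower, at an adjusted p under 0.05 over all genes tested. Of the 9 members, 7 passed the filter on low counts, 2 were higher and 0 lower. Il1b rose by 0.70 log2 units per doubling of labelled RNA (SE 0.13, edgeR adjusted p = 0.00436) and Il1a rose by 0.84 (SE 0.16, edgeR adjusted p = 0.00610). In the 3 libraries both had their highest level in replicate 1, labelled 1000 ng. The fit left 1 residual degree of freedom, so its p-values draw on a dispersion shared across genes.

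Both calls rest on replicate 1. With replicates 2 and 3 alone, a value with no test, the slope of Il1a was -0.02 and that of Il1b 0.35. On kallisto-type counts the slope of Il1a was 0.65 with an edgeR adjusted p of 0.0564, which ends its call, while Il1b kept its call (0.56, edgeR adjusted p = 0.0375). Over the 5 other fits with a test, the adjusted p of Il1b ran from 1.93e-05 to 0.0375 and that of Il1a from 9.62e-07 to 0.0564.

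The other 5 tested members were not called. Their slopes were 0.46 (SE 0.22) for Il18, 0.25 (SE 0.25) for Il1rap, 0.18 (SE 0.14) for Il18bp, 0.17 (SE 0.16) for Il1rn and -0.02 (SE 0.41) for Il1r1, with edgeR adjusted p from 0.230 to 0.987. Il1r2 had too few counts for the test and was called on kallisto-type counts (0.99, SE 0.23, edgeR adjusted p = 0.0439) but not without the filter (1.32, edgeR adjusted p = 0.0737). An unadjusted edgeR p under 0.05 was reached by 3 of the 7 members tested, or 42.9%, and by 21.5% of all genes tested. Those members were Il1a, Il1b and Il18 (edgeR unadjusted p = 0.0486 for Il18). The members tested had a median slope of 0.25, and all genes tested one of -0.01. Of the 14 receptor-proximal genes all were tested and 0 were called (2 at an unadjusted p under 0.05 in edgeR, 0 called by DESeq2). Of the 13 processing genes tested 1 was called, Casp4 at 0.91 (SE 0.16, edgeR adjusted p = 0.00319). That slope was 0.05 with replicates 2 and 3 alone, and DESeq2 did not call it (adjusted p = 0.248, the highest of 5 other fits, with 2.49e-08 the lowest). Of the 12 other family genes 4 were tested and 0 were called in edgeR (1 at an unadjusted p under 0.05). DESeq2 gave none of the 12 an adjusted p, so it could call none. All 8 macrophage markers were tested and 0 were called (1 at an unadjusted p under 0.05 in edgeR, 0 called by DESeq2). DESeq2 gave no adjusted p for the markers of other cell types, so it could call none. In edgeR 6 of these markers were tested and 0 were called, with 2 at an unadjusted p under 0.05. Those 2 were the collagen genes Col1a1 (0, 25 and 30 counts in replicates 1, 2 and 3) and Col1a2 (0, 17 and 17 counts), with slopes of -1.31 (SE 0.56) and -1.35 (SE 0.57) and edgeR adjusted p of 0.183 and 0.180. Without the filter on low counts Col1a1 was called lower (-1.35, edgeR adjusted p = 0.0294), and on kallisto-type counts its slope was 0.06 (edgeR adjusted p = 0.875, the highest of its 4 other edgeR fits). The part of these stromal genes in the slopes of Il1a and Il1b was not tested.

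**Figure D5:**
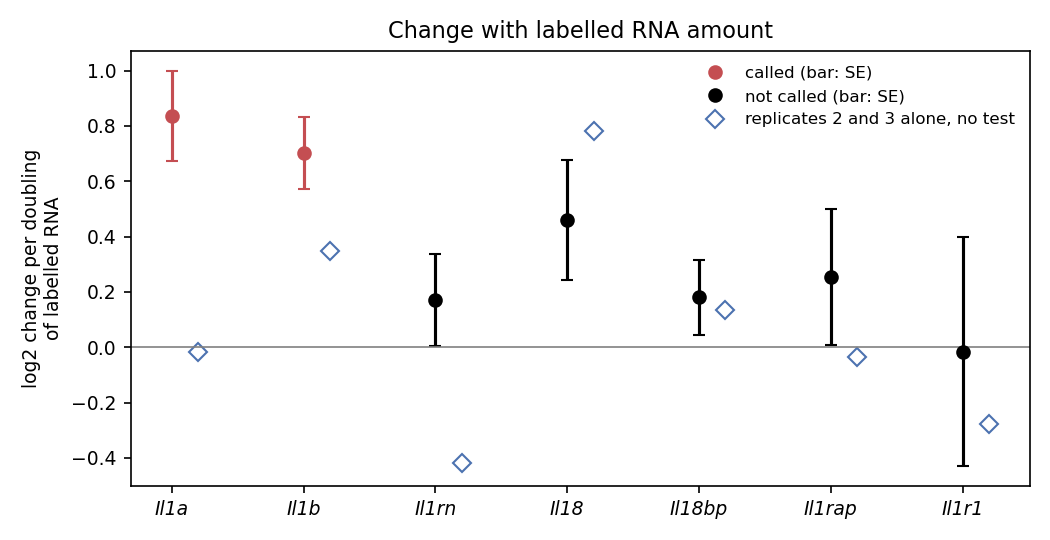
Log2 change per doubling of labelled RNA for the 7 members that passed the filter, with the SE of the edgeR fit (circles, red where the adjusted p was under 0.05), and the slope between replicates 2 and 3 alone (open diamonds, no test). Il1a and Il1b are the called members, and the diamond of Il1a lies at -0.02.

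The genes of at least 10 TPM whose pattern over the 3 libraries was most like that of Il1b were named by the smallest root mean square difference of centred log2(CPM + 1) values among 8169 candidates. They were Aoah, which encodes a lipase that inactivates lipopolysaccharide (0.0084), Gm38262 (0.0099), Gm49730 (0.0184), the oxidative stress regulator Nfe2l2 (0.0225) and the chemokine receptor Cxcr6 (0.0259). Il1b deviated from its own mean by 0.82, -0.58 and -0.23 in replicates 1, 2 and 3, and Aoah by 0.83, -0.59 and -0.24. With 3 libraries a likeness of this kind is a description of these samples.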

How the data were processed

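Chromatin-fraction RNA of 3 libraries (1 group, grouped by the labels) was analysed. Per the file headers, the authors deposited gene and transcript tables of expected counts and TPM with the column names of RSEM, and a transcript table of estimated counts and TPM with those of kallisto. Per the deposited readme files, these refer to mm10 and annotation M21. The aligner, tool versions and strand setting are not given. TPM were recomputed from expected counts and effective lengths over genes with an ENSMUSG identifier and a mean length of at least 300 nt, because entries left out (shorter genes, tRNA and spike-ins) held 61.7% to 67.1% of the deposited TPM. Gene counts totalled 13318787 to 19162053 a library, and a count of 0 allows 3 counts. Counts were rounded for edgeR 4.0.16 (TMM, filterByExpr, quasi-likelihood test on log2 RNA amount, Benjamini-Hochberg, 1 residual degree of freedom) in R 4.3.3, and DESeq2 1.42.0 was an alternative. The fit was tested on simulated data. The biological coefficient of variation was 17.1%. Ratios were tested with an exact sign-flip permutation test. Promoters are RefSeq windows (GRCm38.p6, 9 of 9 members matched). Other steps used Python 3.11.15, pandas 2.3.3 and scipy 1.17.1.

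Members, gene lists and tests were chosen with earlier results of these data known. Named were all members, the 12 other family genes, the 3 highest and the lowest gene of other lists (for markers of other cell types, the highest and those without counts), called genes, overlapping genes and the 5 most like Il1b. Alternatives were the deposited TPM, kallisto-type values, CPM, other thresholds, transcript TPM, RLE size factors, DESeq2, no count filter and leaving out each replicate. Fits on genes of at least 300 nt, the addition of Gm14023 and the order of members in kallisto-type TPM and CPM were added after seeing the data.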

Additional observations from a re-analysis of the deposited data

How the results depend on the processing

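No paired analysis was possible because the 3 libraries form 1 group. The direction of the Il1r2 to Il1r1 ratio reversed to -0.13 log2 units on CPM, and the other 4 ratios kept their direction in TPM, CPM and kallisto-type values. Of 5 further pairs of neighbours in level, Il18bp to Il1rn reversed to -0.54 in kallisto-type TPM and Il1r2 to Il1rap to -2.40 on CPM. Leaving out 1 replicate gave ranges of 3.32 to 3.66 for Il1b to Il1a, -4.89 to -4.49 for Il1rn to Il1b, 3.83 to 4.78 for Il1r2 to Il1r1, 1.02 to 1.42 for Il18bp to Il18 and 2.92 to 3.30 for Il1rap to Il1r1. The noncoding share of Il1b was 70.1% as TPM, and that of Il1rn 58.9% as TPM and 33.7% on kallisto-type counts, with 45.8% to 49.6% and 22.5% to 26.0% when 1 replicate was left out. TPM weight short transcripts more than counts. The number of genes called with RNA amount was 661, but 1181 without the count filter and 364 with DESeq2, which tested 8510 genes, and 741 over genes of at least 300 nt. The number of members called stayed at 2 with RLE size factors, no filter, kallisto-type counts (Il1b and Il1r2), DESeq2 and genes of at least 300 nt. The slope of Il1a ran from -0.018 without replicate 1, where its sign turned, to 1.66 without replicate 2. Deposited TPM were lower for every member with counts, 385 for Il1b, since they are scaled over all entries. Depth limits Il1r1, Il1r2 and Il33.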
